A study of Mus musculus with 4 samples.

Results

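The suppressor of cytokine signalling (SOCS) family and the adaptor gene Sh2b3 were examined in mouse bone marrow progenitors sorted by their level of c-Myc protein. The genes were chosen by name: Socs1 to Socs7, Cish and Sh2b3, with every probe set of the array that is annotated to a single one of them. All 9 genes were found, with 26 of the 45037 probe sets tested and 9 of the 18193 genes that have a probe set of their own. The cells were LSK cells, which lack lineage markers and carry c-Kit and Sca1, taken from the femurs of mice labelled WT B6/129. This marrow fraction holds the blood stem cells and the multipotent progenitors. The Hi group was high and the Lo group low for c-Myc-eGFP, a fusion of c-Myc to a green fluorescent protein, with 2 arrays each. Both groups carried the fusion protein although their label is WT, and the labels give neither its promoter, nor pooling, nor the number of animals. Whether the arrays of a group came from separate animals or sorts is not given either. The p-values thus set each difference against the spread between these arrays, partly pooled over all probe sets, and that spread may be technical.

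SOCS proteins are feedback inhibitors of cytokine receptors. A cytokine activates Janus kinases (JAKs) on its receptor, these activate STAT transcription factors, and the STATs switch on genes that include Cish and several SOCS genes. The SOCS protein then binds the receptor or the kinase through its SH2 domain and recruits, through its C-terminal SOCS box, an elongin and cullin ubiquitin ligase. Sh2b3 encodes LNK, an SH2 adaptor with no SOCS box that restrains JAK2 and thereby limits the number of blood stem cells.

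Intensities are given on the log2 scale, on which 1 unit is a 2-fold difference. Each difference is Hi minus Lo with its moderated standard error (SE) from limma, and adjusted p-values are Benjamini-Hochberg values over all 45037 probe sets. A gene is represented by its brightest probe set, the one whose mean intensity over all arrays is highest. The level of different probe sets depends on their probes, so genes are not ranked by level. Adjusted p-values did not pass 0.05 for any probe set on the array (limma, 0 higher and 0 lower, smallest adjusted p = 0.0839). At an unadjusted p under 0.05, 9.05% of all probe sets were higher and 8.91% lower in Hi.

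In 8 of the 9 genes the brightest probe set read lower on both Hi arrays than on both Lo arrays, and Socs1 alone read higher on both. Over the brightest probe sets of all genes, 25.4% had both Hi arrays below both Lo arrays and 30.0% had both above. Among genes whose brightest probe set was above the dim limit on 4 arrays, as it was for all 9 members, these shares were 31.5% and 29.5%. The dim limit of an array was set by its 27 controls for Bacillus transcripts, at the level of the brightest, between 4.74 and 4.87. The median difference of the 9 genes was -0.59, and that of all genes 0.03. It was -0.30 with gene means over all their probe sets, where 6 of the 9 were negative, and -0.40 over the 26 member probe sets. By limma 0 of the 9 passed an adjusted p of 0.05, while 6 of 9 were lower and 0 higher at an unadjusted p under 0.05, against 11.0% lower and 9.25% higher over all genes and 14.2% and 12.0% of those above the dim limit. The lowest differences were those of Socs2 and Cish, both target genes of STAT5, and the smallest in size were those of Socs1 and Socs4. Of the 5 LSK and stem cell markers measured, Procr and Slamf1 had both Hi arrays below both Lo arrays, with differences of -2.00 ± 0.17 and -1.68 ± 0.52 (SE), Cd34 had both above at 0.11 ± 0.13, and Kit and Flt3 overlapped. The summed linear intensity of the 5 was 16443 and 17718 in Hi, against 20846 and 21044 in Lo. The part of these markers in the member differences was not tested. In sorted bulk samples, fewer cells of a type and less RNA per cell cannot be told apart.

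**Figure D1:**
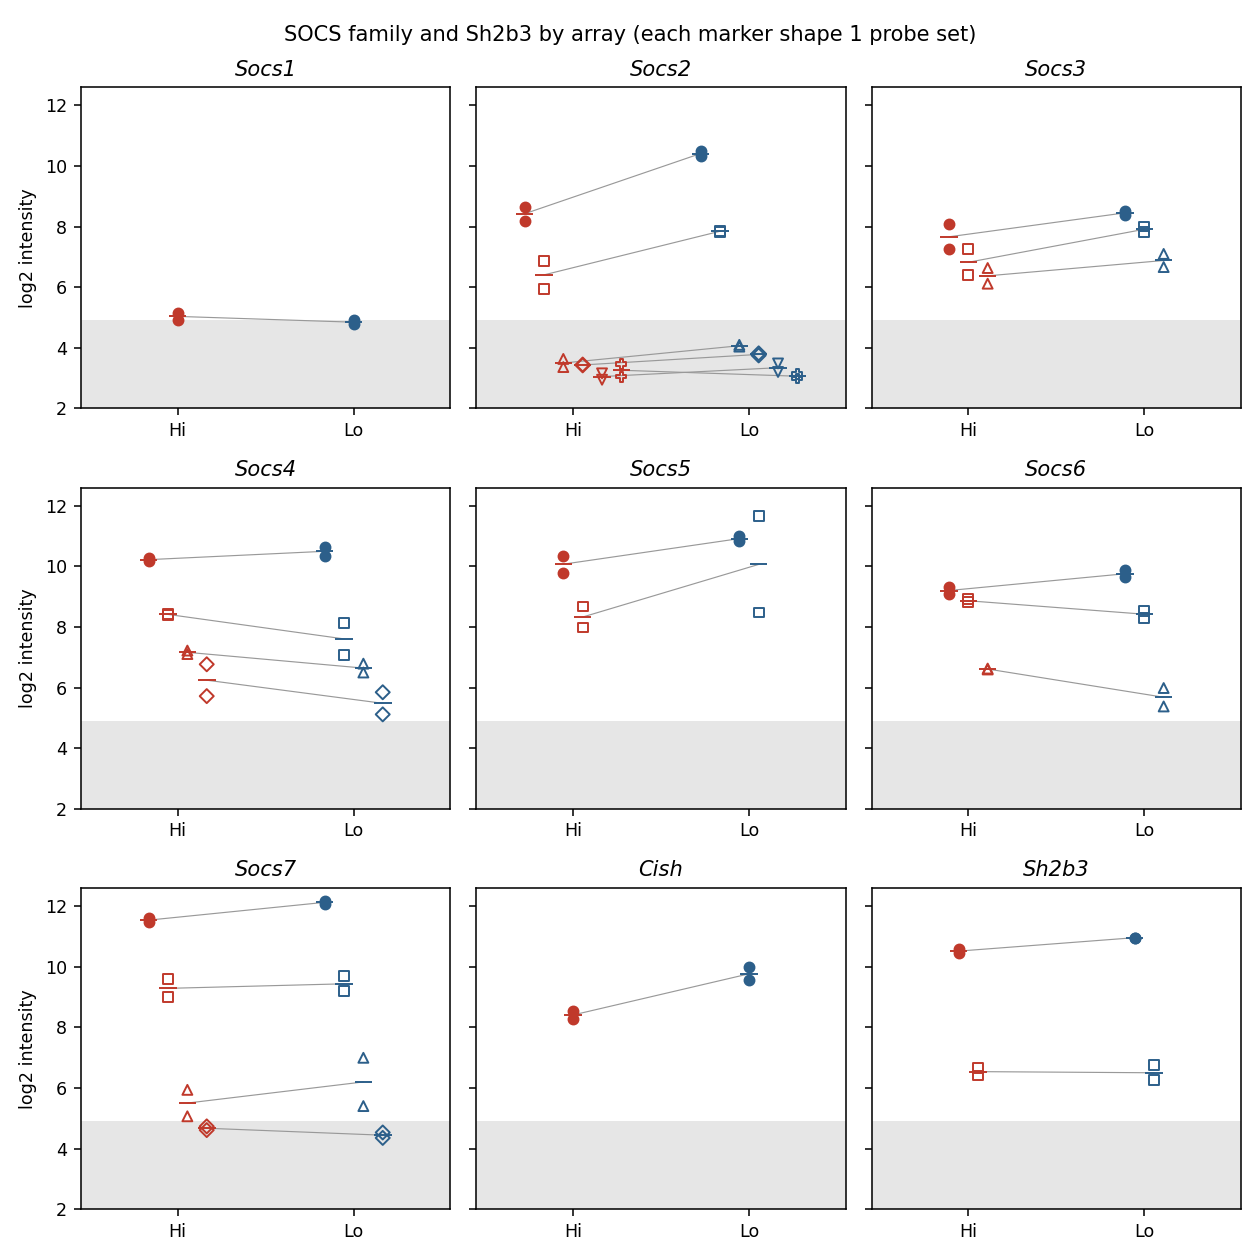
Log2 intensity (vertical axis) of every member probe set on the 2 Hi arrays (red) and the 2 Lo arrays (blue), 1 panel per gene and 1 marker shape per probe set, with filled markers for the brightest probe set, short bars for group means and grey shading up to the highest dim limit, 4.87. The filled Socs2 and Cish markers of Hi and Lo do not overlap, and 4 Socs2 probe sets lie in the shaded range on all 4 arrays.

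Not all probe sets of a gene ran the same way. Of the 26 member probe sets, 14 had both Hi arrays below both Lo arrays, against 22.0% of all probe sets, and 6 had both above, against 29.3%. At an unadjusted p under 0.05, 9 of the 26 were lower and 3 higher, with 0 past an adjusted p of 0.05. Of the 26, 21 were above the dim limit on 4 arrays and 5 on none. Of the 21, 11 had both Hi arrays below both Lo arrays and 5 had both above, against 28.2% and 31.1% of all probe sets that bright, and 8 were lower and 3 higher at an unadjusted p under 0.05, against 12.3% and 13.0%. Probe sets of a gene share its transcripts and are not independent measurements.

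**Figure D2:**
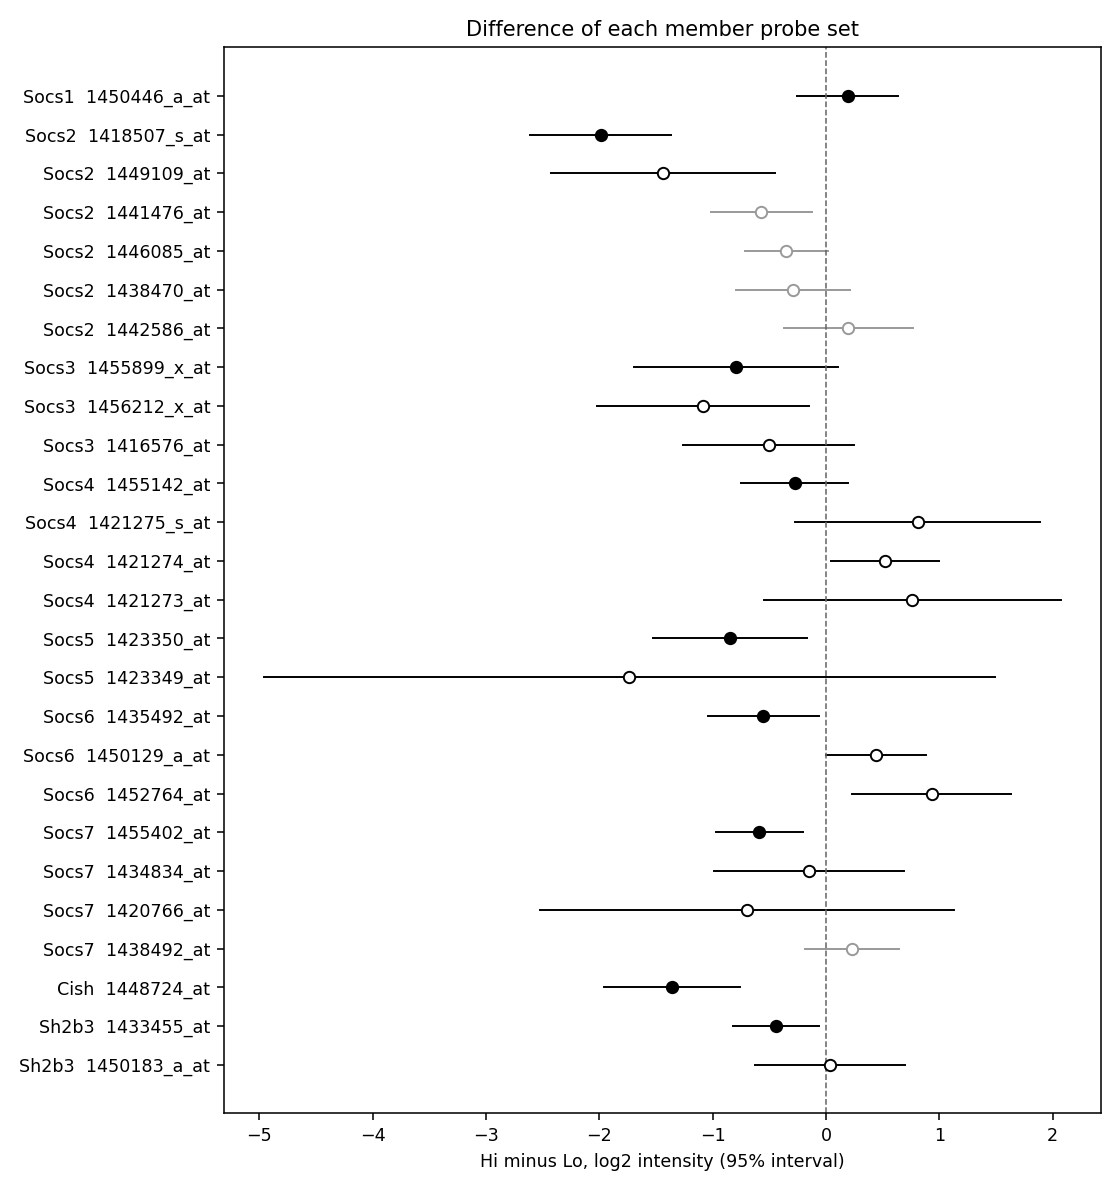
Difference of Hi minus Lo in log2 intensity (horizontal axis) of each of the 26 member probe sets, with its 95% interval from limma, which is not adjusted for the number of probe sets. Filled points are the brightest probe set of each gene, grey points do not exceed the dim limit on any array, and the probe sets of Socs4 and Socs6 lie on both sides of 0.

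Socs2 and Cish are the members most closely tied to STAT5, the transcription factor below the receptors for erythropoietin and growth hormone. Socs2 (chromosome 10, 95383903 to 95417321 in GRCm38.p6) encodes an inhibitor best known for limiting growth hormone signalling. Its brightest probe set (1418507_s_at) read 8.66 and 8.19 in Hi, against 10.51 and 10.32 in Lo. The groups did not overlap, and the gap between them was wider than the spread within either. The difference was -1.99 ± 0.22 (SE, n = 2 each), 3.97-fold lower in Hi, with a 95% interval of -2.61 to -1.37 and a limma adjusted p of 0.0947. When limma was fitted to 1 probe set per gene, Socs2 was called lower with an adjusted p of 0.0476, and that fit called 1.18% of 18193 genes lower and 1.04% higher. The difference ran from -2.23 to -1.75 when single arrays were left out.

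A further Socs2 probe set (1449109_at) read 6.87 and 5.94 in Hi, against 7.83 and 7.87 in Lo, a difference of -1.44 ± 0.35 (SE, limma adjusted p = 0.176). Here too the groups did not overlap, but the difference was -1.91 without Hi replicate 1 and -0.97 without Hi replicate 2. The other 4 Socs2 probe sets were at or under the dim limit on every array, so no fold is given for them. A mean over the 6 Socs2 probe sets, which counts these 4 too, had a difference of -0.74.

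Cish (chromosome 9, 107296659 to 107302784) encodes CIS, which binds receptors at the sites where STAT5 docks. Its single probe set (1448724_at) read 8.28 and 8.54 in Hi, against 9.56 and 9.98 in Lo. Both Hi arrays lay below both Lo arrays by more than the arrays of a group differed. The difference was -1.36 ± 0.22 (SE, n = 2 each), 2.56-fold lower in Hi, with a 95% interval of -1.96 to -0.75 and a limma adjusted p of 0.11. Cish was not called in a fit over 1 probe set per gene, nor in one over gene means of all their probe sets, which called 1.52% of genes lower and 1.39% higher but 0 members (adjusted p = 0.0535 for Cish by limma, the smallest over the alternatives). Leaving out single arrays gave -1.57 to -1.15.

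STAT dimers recognise the motif TTCNNNGAA, and c-Myc with its partner Max the E-box CACGTG. Both read the same on either strand and share no overlap in the windows below. RefSeq promoter windows of 250 bases before to 50 after the transcription start were searched for Socs1, Socs3, Socs4, Cish and Sh2b3, 5 of the 9 members; those of Socs2, Socs5, Socs6 and Socs7 were not used here. The STAT motif occurs in 8.3% of 32851 such windows and the E-box in 7.15%. Cish has 2 STAT matches, at positions 1 to 9 and 12 to 20 from the annotated start, and 0.457% of all windows have 2 or more. Socs3 has 1 STAT match at -154 to -146, and Sh2b3 has 1 E-box at -172 to -167. The windows of Socs1 and Socs4 hold neither motif. The stretches that hold the matches are printed for Cish, Socs3 and Sh2b3, the searched members with a match. They end 25 bases after the start, in RefSeq GRCm38.p6, 5′ to 3′, with the matched motif in capitals. The Cish stretch is chr9:107296564-107296683 on the plus strand, the Socs3 stretch chr11:117969342-117969530 on the minus strand and the Sh2b3 stretch chr5:121836080-121836286 on the minus strand. The annotated starts used for Socs3 and Sh2b3 lie inside the span of each gene, downstream of its outermost start. A match is a description of the letters, since binding was not measured on these arrays.
Cish: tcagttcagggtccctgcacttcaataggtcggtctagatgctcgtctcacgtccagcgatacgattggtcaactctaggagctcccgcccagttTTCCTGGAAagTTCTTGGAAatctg
Socs3: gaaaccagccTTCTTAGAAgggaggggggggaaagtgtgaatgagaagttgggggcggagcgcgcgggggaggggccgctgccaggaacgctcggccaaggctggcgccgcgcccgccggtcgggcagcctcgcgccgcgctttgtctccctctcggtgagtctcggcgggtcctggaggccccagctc
Sh2b3: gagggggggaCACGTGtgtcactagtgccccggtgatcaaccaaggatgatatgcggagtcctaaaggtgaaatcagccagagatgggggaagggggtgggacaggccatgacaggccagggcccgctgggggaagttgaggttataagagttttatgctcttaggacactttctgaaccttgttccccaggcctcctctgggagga

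Socs3 and Socs1 are the members that also block the kinase itself, through a short kinase inhibitory region. Socs3 (chromosome 11, 117966079 to 117970336) limits signalling of the interleukin-6 and G-CSF receptors. Its brightest probe set (1455899_x_at) read 8.08 and 7.25 in Hi, against 8.52 and 8.39 in Lo. The groups did not overlap, but the Hi arrays differed from each other by about as much as Hi from Lo. The difference was -0.79 ± 0.32 (SE, n = 2 each, limma adjusted p = 0.322), and it was -1.20 without Hi replicate 1 and -0.38 without Hi replicate 2. The other 2 Socs3 probe sets had differences of -1.09 ± 0.34 and -0.51 ± 0.27, also with both Hi arrays below both Lo arrays. All 3 thus ran the same way, and Hi replicate 2 was the lowest array on each.

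Socs1 (chromosome 16, 10783808 to 10785536) is the main brake on interferon gamma signalling. Its single probe set (1450446_a_at) lay just above the dim limit and read 4.92 and 5.16 in Hi, against 4.78 and 4.91 in Lo. Hi replicate 1 and Lo replicate 2 were almost equal. The difference was 0.19 ± 0.16 (SE, n = 2 each, limma adjusted p = 0.591), with a 95% interval of -0.25 to 0.63, and it was 0.07 without Hi replicate 2 and 0.31 without Hi replicate 1. Any difference at this low level was not detectable beyond the spread between arrays.

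Socs4 and Socs5 form a branch of the family with long N-terminal regions that has been linked to the epidermal growth factor receptor. Socs5 (chromosome 17, 87107278 to 87137647) had its brightest probe set (1423350_at) at 9.80 and 10.35 in Hi, against 10.82 and 11.01 in Lo. The groups did not overlap. However, the gap between them was narrower than the spread between the Hi arrays. The difference was -0.84 ± 0.24 (SE, n = 2 each), 1.80-fold lower in Hi, with a limma adjusted p of 0.212. It ran from -1.12 to -0.57 when single arrays were left out. The second Socs5 probe set read 7.98 and 8.68 in Hi, against 11.65 and 8.48 in Lo, and Lo replicate 1 alone made its difference of -1.74 ± 1.16. Without Lo replicate 1 it was -0.15.

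The probe sets of Socs4 (chromosome 14, 47276920 to 47296102) disagreed. The brightest (1455142_at) read 10.17 and 10.28 in Hi, against 10.65 and 10.35 in Lo, with both Hi arrays below both Lo arrays. Its difference was -0.28 ± 0.17 (SE, n = 2 each, limma adjusted p = 0.476), which became -0.13 when Lo replicate 1 was left out and -0.42 when Lo replicate 2 was. The other 3, which are annotated to a common transcript record, had positive differences of 0.81 ± 0.39, 0.52 ± 0.17 and 0.76 ± 0.47. Of these, 2 had both Hi arrays above both Lo arrays. Single arrays weigh on them: the first (1421275_s_at) became 0.29 with Lo replicate 2 left out and 1.33 with Lo replicate 1 left out. The last (1421273_at) was 0.24 without Hi replicate 1, 1.29 without Hi replicate 2 and 0.40 without Lo replicate 1. With the mean of all Socs4 probe sets the difference was 0.45, so no direction is given for the gene.

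Socs6 and Socs7 form another branch, with reported partners among insulin receptor substrates, and SOCS6 also binds KIT, the stem cell factor receptor of these cells. The probe sets of Socs6 (chromosome 18, 88865169 to 88894364) also disagreed, and this was the only member with an unadjusted p under 0.05 on both sides. The brightest (1435492_at) read 9.09 and 9.33 in Hi, against 9.88 and 9.64 in Lo, a difference of -0.55 ± 0.18 (SE, n = 2 each, limma adjusted p = 0.239). The next (1450129_a_at) read 8.82 and 8.92 in Hi, against 8.54 and 8.30 in Lo, a difference of 0.44 ± 0.16 (adjusted p = 0.276 by limma). The third (1452764_at) read 6.60 and 6.63 in Hi, against 5.99 and 5.38 in Lo, a difference of 0.93 ± 0.25 (adjusted p = 0.196 by limma). In each of the 3 the groups did not overlap, and the unadjusted p by limma was 0.0348, 0.0491 and 0.021. The mean of the 3 had a difference of 0.27, and no direction is given for the gene.

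Socs7 (chromosome 11, 97362292 to 97398542) had its brightest probe set (1455402_at) at 11.48 and 11.60 in Hi, against 12.17 and 12.09 in Lo. The groups did not overlap and the arrays of each group lay close together. The difference was -0.59 ± 0.14 (SE, n = 2 each), 1.5-fold lower in Hi, and the limma adjusted p 0.167. It ran from -0.65 to -0.53 without single arrays. Of its other probe sets, those above the dim limit had differences of -0.15 ± 0.30 and -0.70 ± 0.66, with overlapping groups, and the fourth did not exceed it on any array. The mean over all 4 had a difference of -0.30.

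Sh2b3 (chromosome 5, 121815481 to 121837645) had its brightest probe set (1433455_at) at 10.45 and 10.59 in Hi, against 10.96 and 10.97 in Lo. Both Hi arrays lay below both Lo arrays. The difference was -0.44 ± 0.14 (SE, n = 2 each), 1.36-fold lower in Hi, with a limma adjusted p of 0.233 and a 95% interval of -0.82 to -0.06. Leaving out single arrays gave -0.51 to -0.38. The second Sh2b3 probe set read 6.67 and 6.41 in Hi, against 6.25 and 6.76 in Lo, and its groups overlapped (difference 0.04 ± 0.24).

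**Figure D3:**
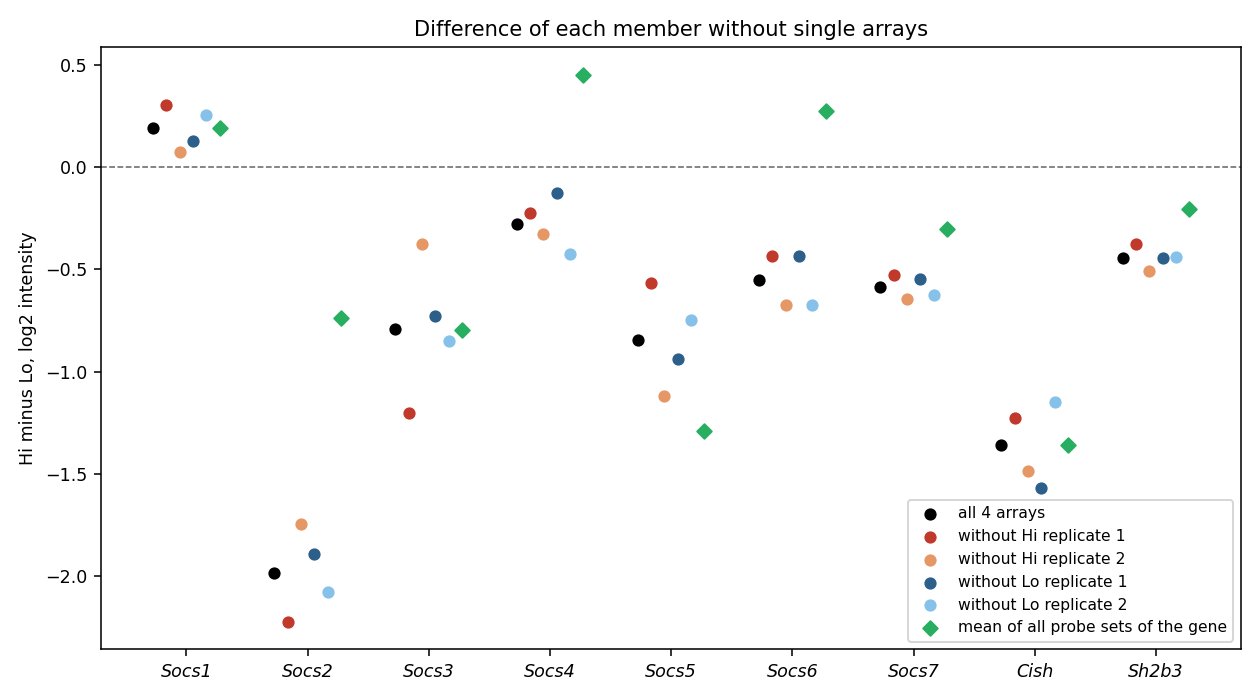
Difference of Hi minus Lo in log2 intensity (vertical axis) of the brightest probe set of each member with all arrays (black) and without each single array (red and orange for Hi, blue and light blue for Lo), beside the gene's mean over its probe sets (green diamonds). Socs2 and Cish stay under -1 without any single array, and the green diamonds of Socs4 and Socs6 lie above 0, at 0.45 and 0.27.

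The genes with the array profile most like Socs2 and Cish were found among 12803 genes above the dim limit on at least 2 arrays, as the 3 with the smallest Euclidean distance between mean-centred log2 values over the 4 arrays. For Socs2 these were Esam, an adhesion molecule of endothelial and stem cells (distance 0.0612), the transcription factor gene Nfib and Gata3, a transcription factor of T cells and stem cells (0.0934). Esam read 8.55 and 8.01 in Hi, against 10.36 and 10.22 in Lo. Nfib passed the filter through Lo alone and was dim in Hi, at least 1.43-fold lower there, so its place rests on Hi readings under the dim limit. For Cish they were Tcta (0.117), the synaptotagmin gene Syt11 (0.118) and C77080 (0.120). Syt11 read 6.67 and 6.99 in Hi, against 8.06 and 8.53 in Lo. With 4 arrays in 2 groups, any gene with a like difference and a like spread has a small distance.

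The rest of the pathway was described by lists of genes, 1 brightest probe set per gene, and by limma 0 members of any list passed an adjusted p of 0.05. The shares to set their counts against are the 25.4% of all genes with both Hi arrays below both Lo arrays and the 30.0% with both above. Among genes whose brightest probe set was above the dim limit on 4 arrays, these shares were 31.5% and 29.5%. Of the ubiquitin ligase partners of the SOCS box, 2 of 6 had both Hi arrays above both Lo arrays, near the 30.0% of all genes, and 0 had both below. Cul2, a cullin scaffold, had a difference of 0.61 ± 0.13 (SE) and Eloc, the elongin C that SOCS boxes bind, of 0.48 ± 0.15. Cul5, the cullin most SOCS proteins use, stood at -0.24 ± 0.29. The median of this list was 0.03, between -0.0046 and 0.13 without single arrays, -0.02 after cyclic loess and 0.23 with gene means over all their probe sets, so it has no stable sign.

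Of the 12 cytokine and growth factor genes measured, 7 did not exceed the dim limit on any array, among them Il3, Il6 and Csf3. Both Hi arrays lay below both Lo arrays in 4 of the 12, against 25.4% of all genes, and above both in 0, against 30.0%, and 1 of the 4, Csf3, was dim on every array. Il15, a cytokine of lymphocytes, had a difference of -0.68 ± 0.15 (SE) and Lif, which was dim in Hi, was at least 1.20-fold lower there. Of the 2 Lif probe sets, 1 differed in the opposite direction, and their mean had a difference of -0.09. The receptors ran both ways: of 23 measured, 6 had both Hi arrays below both Lo arrays and 5 above both, counts near the 25.4% and 30.0% of all genes. Epor, the erythropoietin receptor gene, had a difference of 1.92 ± 0.17 and Ghr, the growth hormone receptor gene, of -1.91 ± 0.23. Both were called when limma was fitted to 1 probe set per gene (adjusted p = 0.0385 for Epor and 0.0486 for Ghr). That fit called 1.04% of 18193 genes higher and 1.18% lower. The summed linear intensity of 4 erythroid markers was 2410 and 2909 in Hi, against 818 and 580 in Lo, with 3 of the 4 above and Alas2 dim on all arrays, and its part in the Epor difference was not tested. Ghr read 7.88 and 7.54 in Hi, against 9.83 and 9.40 in Lo. Kit and Flt3, receptors of early progenitors, stood at -0.27 ± 0.20 and -0.15 ± 0.18.

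All 10 measured JAK and STAT genes had both Hi arrays below both Lo arrays, against 25.4% of all genes and 31.5% of genes above the dim limit on 4 arrays. At an unadjusted p under 0.05, 4 of the 10 were lower, against 11.0% of all genes. The median difference was -0.46, between -0.69 without Lo replicate 1 and -0.28 without Lo replicate 2. Stat3 had a difference of -0.69 ± 0.14 (SE) and Stat4 of -0.70 ± 0.15. Among genes picked after their values were seen, Jak2, the kinase that LNK restrains, had -0.82 ± 0.19, and Stat5a and Stat5b had -0.11 ± 0.13 and -0.28 ± 0.14. In 4 of the 10, Jak1, Tyk2, Stat5a and Stat5b, 1 other probe set differed in the opposite direction.

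Other inhibitors and adaptors of cytokine signalling showed no common direction, with 6 of 20 below and 4 above on both Hi arrays, against 25.4% and 30.0% of all genes. Their median of -0.11 was -0.16 without Hi replicate 1, -0.011 without Hi replicate 2 and -0.00072 without Lo replicate 1. Dok2, an adaptor that dampens kinase signalling, had a difference of -0.55 ± 0.14 (SE) and Pias2, of a family that restrains STATs, of 0.44 ± 0.15. Of the 3 Pias2 probe sets, 1 differed in the opposite direction. Sh2b1 and Sh2b2, the relatives of Sh2b3, stood on opposite sides at -0.63 ± 0.23 and 0.69 ± 0.33. Among other STAT target genes, all above the dim limit on 4 arrays, 12 of 19 had both Hi arrays below both Lo arrays and 2 above both. The shares were 25.4% and 30.0% over all genes, and 31.5% and 29.5% over genes above that limit on 4 arrays. Among the 12, probe sets differed in the opposite direction for Bcl6 (1 of 2), Mcl1 (1 of 6) and Ccnd2 (3 of 7). The median of this list was -0.38, and -0.23 with gene means over all their probe sets. Gbp2 and Ifit1, both interferon-induced, had differences of -1.07 ± 0.23 and -2.57 ± 0.60.

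**Figure D4:**
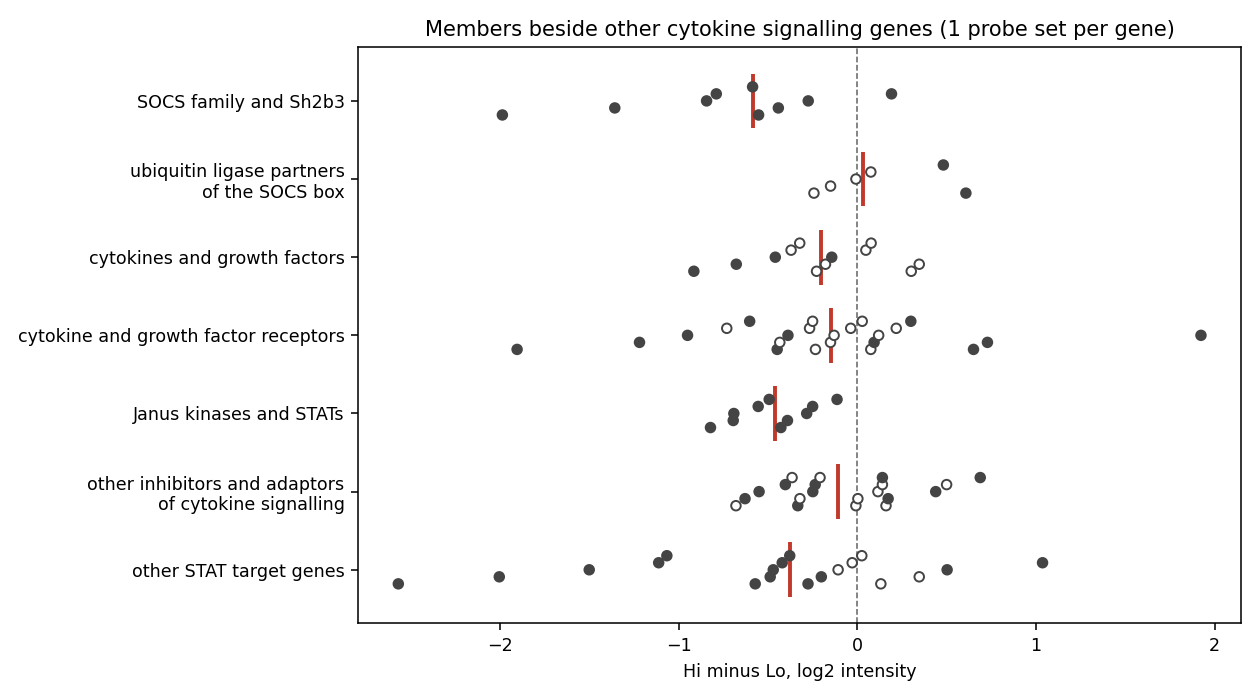
Difference of Hi minus Lo in log2 intensity (horizontal axis) of the 9 members and of 6 lists of other cytokine signalling genes, 1 brightest probe set per gene. Filled points have both Hi arrays on one side of both Lo arrays, open points overlap and red lines mark medians, which are -0.59 for the members and -0.46 for the JAK and STAT genes.

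Some markers of further cell types and of RNA quality moved with the groups, and their part in the results above was not tested. The Myc transcript read 12.41 and 12.41 in Hi, against 11.70 and 10.64 in Lo. Kit, Flt3 and Cd34 were bright on all arrays, and Ly6a was not analysed here. The summed linear intensity of 7 granulocyte and monocyte markers was 43093 and 38395 in Hi, against 23190 and 18333 in Lo, with both Hi arrays above both Lo arrays in 4 of 7. That of 4 mast cell and basophil markers was 3186 and 3401 in Hi, against 1458 and 1471 in Lo, with 1 of 4, Mcpt8, above. That of 4 megakaryocyte markers was 6074 and 5096 in Hi, against 3800 and 4493 in Lo, with 2 above and 1 below. The sums of 5 T cell markers overlapped between the groups, from 465 to 645 in Hi, against 545 to 578 in Lo, with 1 of 5 above and 2 below. The 4 B cell markers summed to 2551 and 2741 in Hi, against 3323 and 3360 in Lo, with 1 above, 2 below and Pax5 dim on all arrays, and the 4 endothelial markers to 1330 and 1338 in Hi, against 1984 and 1935 in Lo, with 1 above, 2 below and Cdh5 dim on all. For Gapdh, the 3′ control probe set exceeded the 5′ one by 0.63 and 0.65 log2 units in Hi, against 0.74 and 0.78 in Lo, and for Actb by 0.60 and 0.55 in Hi, against 0.84 and 0.57 in Lo, where the groups overlapped.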

How the data were processed

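Transcript levels were measured on Affymetrix mouse arrays in 2 Hi and 2 Lo samples. Per the labels' protocols, a small amount of total RNA was amplified by the NuGEN Ovation system and biotin-labelled as cDNA, a step that can alter the size of differences. What the authors deposited is a linear intensity for each probe set on each array. The submitters' processing notes name RMA; its version is not given in the sources used here. Since RMA aligns the probe intensities of the arrays, a general gain or loss of RNA in a cell is not visible. Here the intensities were log2-transformed with no offset, 64 control probe sets of 45101 were left out, and Hi minus Lo was fitted over 45037 probe sets by lmFit and eBayes of limma (version 3.58.1, R version 4.3.3, no block, two-sided; 2 residual and 1.976 prior degrees of freedom). Calls were made at a Benjamini-Hochberg adjusted p under 0.05. The number of arrays limits the precision.

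The platform annotation gave 1 gene symbol to 34945 probe sets, several to 932 and none to 9160. All 34741 whose gene ID the GRCm38.p6 gene table holds kept their symbol. The brightest probe set represents a gene. Where neither array of a group exceeded the dim limit, only a bound is given for that group. The named genes were all members, 2 genes of each pathway list (smallest unadjusted p with groups that do not overlap), 3 nearest genes for the 2 members with the smallest p, and Myc. All others were picked after their values were seen. The members and lists were chosen with earlier results of these data known. The fit was tested on simulated data. Alternatives were the replicate block, a shift to 1 median, cyclic loess, a dim filter, an offset of 16, an intensity trend, no moderation, single arrays left out and fits over genes.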

Additional observations from a re-analysis of the deposited data

How the results depend on the processing

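Over 13 alternatives for each of the 9 members, 114 differences kept their direction and stayed uncalled. With gene means over all their probe sets, Socs4 turned to 0.45 and Socs6 to 0.27, against -0.28 and -0.55, because their dimmer probe sets have the opposite sign. Fitting 1 probe set per gene tested fewer features and estimated the prior variance anew. The unadjusted limma p of Socs2 was 0.000607 there, against 0.000896 in the main fit. Gene means over the same 18193 genes gave Socs2 an adjusted p of 0.0704 by limma. Over the alternatives with all 4 arrays, its adjusted p ran from 0.0476 to 0.313. Socs2 was called lower when 1 probe set per gene was fitted (-1.99, adjusted p = 0.0476). That was the 1 member called by that fit, and 0 were called by any other. Over the whole array the number of calls was 0 by the moderated fit, 1 without moderation, 528 of 18193 with those gene means (252 higher, 276 lower) and 404 with 1 probe set per gene (190 higher, 214 lower). Each of the 2 fits over genes called 2 pathway genes, Epor higher and Ghr lower, against 0. The median of the ubiquitin ligase list ran from -0.02 to 0.23 over its 13 alternatives, and those of the other 5 pathway lists stayed below 0.

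The labels give Hi and Lo the same replicate numbers. The deviations of same-numbered arrays correlated at r = 0.0719 over all probe sets, which cannot exclude a shared animal or sort. The main fit does not take the number as a pairing. With the replicate block, 0 probe sets, 0 member probe sets and 0 pathway genes were called, and the adjusted p of Socs2 and Cish was 0.193 each. With 2 arrays per group, the 5 member probe sets that exceed the dim limit on no array give no usable difference, and the Socs1 probe set lay just above that limit.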
